A study of Mus musculus with 18 samples.

Results

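Ribosome footprints were compared between 2 runs of one labelling protocol in RAW264.7, a macrophage-like cell line of the mouse, and the 4 footprint libraries compared here were 2 of experiment 2 (20 and 40 min) and 2 of experiment 1 (20 and 40 min), out of 18 libraries in the series. They were taken by label, as the footprint libraries whose labelling time occurs in both experiments. Cells of both experiments had received 200 µM 4-thiouridine (4sU), a modified uridine that cells build into new RNA, for the stated time, and no group here was untreated. A lysate was split into input, which is cytoplasmic RNA broken by alkali, and footprints, which are the fragments that ribosomes shield from RNase I in the monosome fraction. The labels do not say whether lysates are separate cultures or what set the experiments apart, so p-values measure the spread between these libraries only. The value per gene was the deposited read count summed over all classes of T positions and conversions, given below as normalised CPM, which is the count scaled to the library's effective size over the 9 footprint libraries.

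A footprint marks where a ribosome sat on an mRNA, so footprint reads per gene follow both how much mRNA a gene has and how many ribosomes each copy carries. In such bulk libraries fewer cells with an mRNA and less of it per cell cannot be told apart. Macrophage lines respond to serum, crowding and microbial products with immediate-early transcription factors, chemokines and interferon-stimulated genes, and these mRNAs turn over fast. Replication-dependent histone mRNAs are made in S phase and end in a stem-loop instead of a poly(A) tail.

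The libraries of experiment 2 were deeper. They held 59738585 and 29065324 reads at 20 and 40 min in experiment 2, against 20017786 and 21031864 in experiment 1. The mean number of T positions per read was 6.61 and 6.29 in experiment 2, against 6.43 and 6.44 in experiment 1. Within genes that had at least 200 reads in both libraries the T difference of experiment 2 minus experiment 1 ran in opposite directions at the 2 times, with a median of 0.181 at 20 min and -0.126 at 40 min. All 12 macrophage markers were read in the 4 libraries, the lowest being Itgam and the highest Lyz2, and their summed level was 12347 to 12672 CPM in experiment 2 and 9902 to 10511 CPM in experiment 1. Of 39 markers of other cell types 26 had no read in these libraries, and none exceeded 1.80 CPM, the level of the B-cell receptor gene Cd79b in experiment 2 at 40 min. The summed level of those 39 genes was 2.69 to 3.73 CPM in experiment 2 and 1.59 to 1.68 CPM in experiment 1.

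The experiments differed in many genes, mostly by small steps. edgeR's quasi-likelihood test with a term for labelling time called 1730 of 10211 genes higher in experiment 2 (16.9%) and 1659 lower (16.2%) at a Benjamini-Hochberg adjusted p under 0.05. Of these, 254 of the higher and 74 of the lower genes reached 2-fold, and the median log2 fold change over all genes was -0.00. The time term leaves 1 residual degree of freedom. edgeR then took each gene's spread from a trend with read level that all genes share. Without the time term the spread was estimated per gene, and 794 genes were higher (7.78%) and 598 lower (5.86%). Fits that leave out 1 library also have no time term. Calls below are those with the time term, and the count without it stands beside the larger of a list's 2 counts where it differs by over 1.5 times.

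The difference at 20 min resembled that at 40 min. Across the genes tested the differences at both times had a Pearson r of 0.755, a description only, since the genes share libraries. The other libraries, which did not enter the fit behind these calls, placed many of these genes the same way. The 30 min library of experiment 2 lay above the 0, 60, 90 and 120 min libraries of experiment 1 in 826 of the 1730 genes called higher (47.7%), against 23.1% of all genes. It lay below them in 600 of the 1659 called lower (36.2%), against 23.3% of all genes. All 3 libraries of experiment 2 lay above all 6 of experiment 1 in 985 of the 10211 genes (9.65%) and below them in 769 (7.53%). Times differ between those sets, so no test was made.

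**Figure D1:**
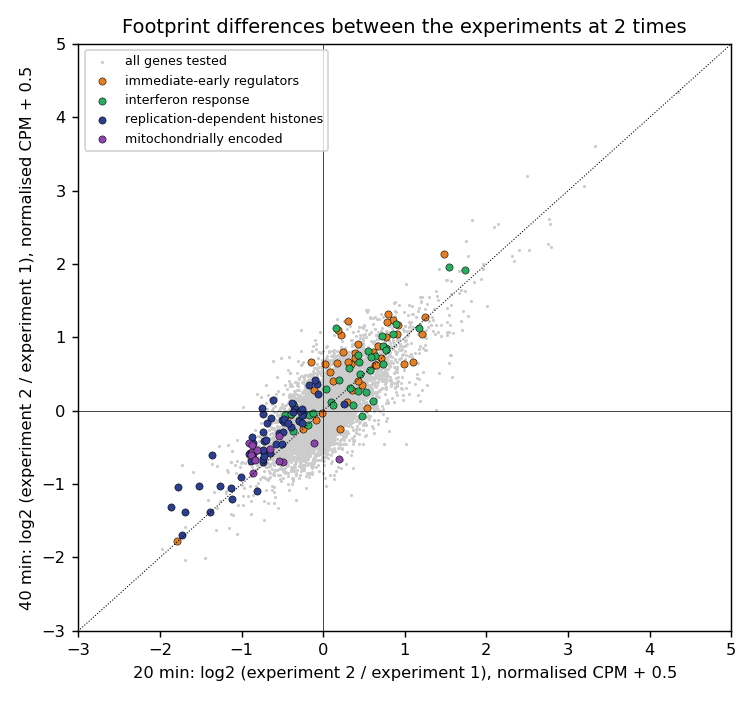
Log2 of the ratio of normalised CPM plus 0.5 (experiment 2 over experiment 1) per gene, at 20 min on the x axis and at 40 min on the y axis, with 4 gene lists in colour and the line of equal differences dotted. Immediate-early and interferon genes lie mostly in the upper right, histones in the lower left, and Egr1 stands alone among immediate-early genes at the lower end.

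Carbonic anhydrase 2 led the genes that were higher in experiment 2. Car2 (ENSMUSG00000027562, chr3:14886273-14900770, mm10), an enzyme of bicarbonate formation that is abundant in osteoclasts, stood at 130.5 and 131.7 CPM in experiment 2, against 5.93 and 6.02 CPM in experiment 1. No library of experiment 1 came near those of experiment 2, since the remaining times ranged from 5.60 to 9.13 CPM and the 30 min library of experiment 2 was at 115 CPM. The log2 fold change was 4.45 with a standard error of 0.11 (adjusted p = 5.91e-316, and 1.29e-07 without the time term). Input of the same lysates differed by 3.61 on the log2 scale. Ctsh (ENSMUSG00000032359, chr9:90054152-90076089), which encodes the lysosomal protease cathepsin H, had 20.0 and 19.8 CPM in experiment 2, against 1.54 and 1.17 CPM in experiment 1. Its log2 fold change was 3.87 with a standard error of 0.18 (adjusted p = 8.12e-100, and 1.84e-05 without the time term).

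Of the chemokine genes, Ccl2 and Ccl4 were among the 12 highest. Ccl2 (ENSMUSG00000035385, chr11:82035571-82037453), which attracts monocytes, had 80.0 and 76.5 CPM in experiment 2, against 8.29 and 8.67 CPM in experiment 1. The log2 fold change was 3.20 with a standard error of 0.11 (adjusted p = 8.15e-172, and 1.26e-06 without the time term). A predicted gene, Gm17268, overlaps it. Ccl4 had 67.0 and 60.7 CPM in experiment 2, against 16.9 and 14.8 CPM in experiment 1, a log2 fold change of 2.00 with a standard error of 0.10. Ccl3, which neighbours Ccl4 on chromosome 11 and shares its receptors, had 172 and 156 CPM in experiment 2, against 51.0 and 49.9 CPM in experiment 1. All 3 chemokines were also higher in input, by 2.92 for Ccl2, 1.77 for Ccl4 and 1.40 for Ccl3 on the log2 scale.

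The rest of the 12 highest named genes were a mixed set. Id1, an inhibitor of basic helix-loop-helix factors, had 48.1 and 52.7 CPM in experiment 2, against 10.6 and 8.63 CPM in experiment 1, a log2 fold change of 2.39 with a standard error of 0.11. Pim1, a kinase induced by cytokine signals through STAT factors, had 27.3 and 33.8 CPM in experiment 2, against 8.25 and 8.63 CPM in experiment 1. In Pim1 the footprint difference exceeded the input difference by 0.98 on the log2 scale (standard error 0.20, adjusted p = 9.09e-03 for that comparison in edgeR). Gpnmb, a transmembrane glycoprotein of macrophages and osteoclasts, had 133 and 121 CPM in experiment 2, against 34.5 and 34.7 CPM in experiment 1. The other members were Ush1c at 3.22, Scn11a (a sodium channel) at 2.67, Slc4a5 (a bicarbonate cotransporter) at 2.60, Trem3 (a myeloid receptor) at 2.40 and Sash3 (a lymphocyte adaptor) at 2.02 on the log2 scale. In each of these 12 genes the 3 libraries of experiment 2 lay above all 6 of experiment 1.

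**Figure D2:**
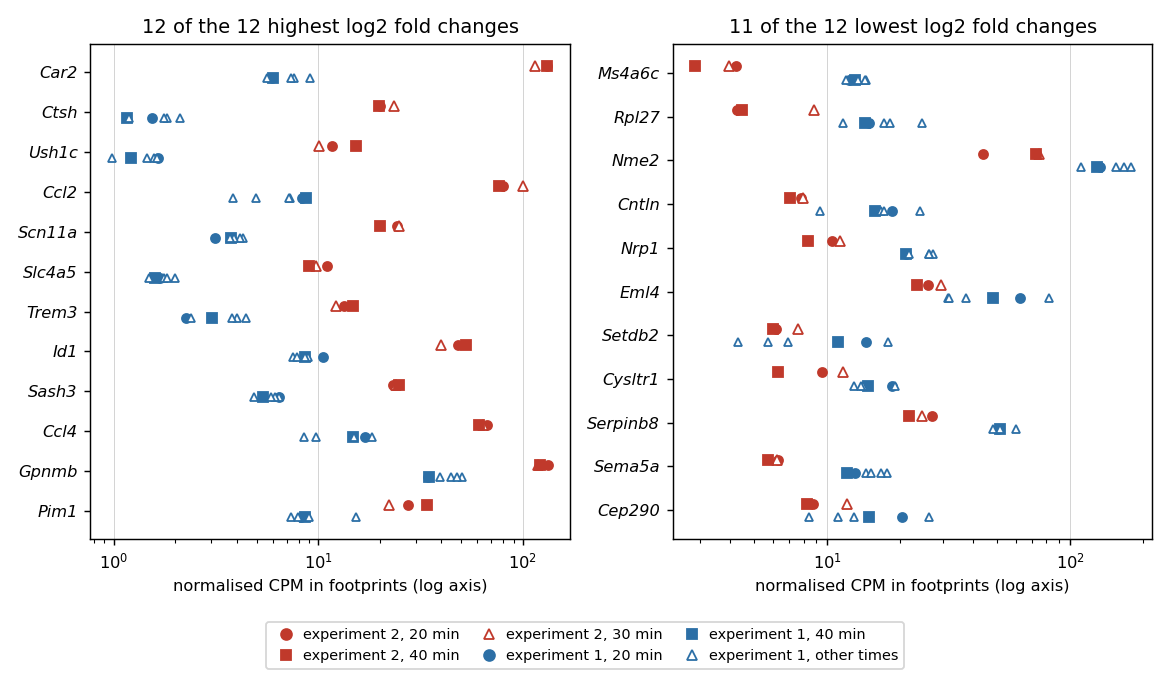
Normalised CPM in each footprint library (log axis) for the 12 genes with the highest and 11 of the 12 with the lowest log2 fold change, experiment 2 in red above experiment 1 in blue. Filled symbols are the 20 and 40 min libraries that entered the fit, which are apart by the naming rule, and open triangles the other times. These are also apart in all 12 genes at left, whereas Cep290, Setdb2, Eml4 and Cysltr1 at right have other experiment 1 times close to or among those of experiment 2.

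The lowest genes are described one by one, since they belong to no single list. Ms4a6c, a membrane-spanning protein of myeloid cells, had 4.20 and 2.85 CPM in experiment 2, against 12.3 and 13.01 CPM in experiment 1, a log2 fold change of -1.83 with a standard error of 0.15 (adjusted p = 6.08e-31, and 1.28e-03 without the time term). Its input difference was -2.20. Nrp1 (ENSMUSG00000025810, chr8:128358604-128503363), a coreceptor for semaphorins and vascular endothelial growth factor, had 10.5 and 8.38 CPM in experiment 2, against 21.2 and 21.03 CPM in experiment 1. Serpinb8, a serine protease inhibitor, had 27.1 and 21.7 CPM in experiment 2, against 50.6 and 51.5 CPM in experiment 1. For Ms4a6c, Nrp1 and Serpinb8 every library of experiment 2 was below every library of experiment 1. Sema5a, a semaphorin, differed by -1.07 and Cysltr1, a receptor for leukotrienes, by -1.08 on the log2 scale.

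In Cep290, Eml4 and Cntln, also among the 12 lowest, input was not lower by the test. Cep290 (ENSMUSG00000019971, chr10:100487558-100574840), a long coiled-coil protein of the cilium base, had 8.71 and 8.27 CPM in experiment 2, against 20.4 and 14.8 CPM in experiment 1. Its input was higher in experiment 2, at 75.1 and 71.4 CPM, against 44.8 and 45.6 CPM in experiment 1. The footprint difference fell short of the input difference by -1.78 (standard error 0.19, adjusted p = 1.07e-03 in edgeR). Eml4, a microtubule-binding protein, had 25.9 and 23.5 CPM in experiment 2, against 62.2 and 48.2 CPM in experiment 1, with an input difference of 0.05. Cntln, a centriolar linker protein, had 7.80 and 7.02 CPM in experiment 2, against 18.5 and 15.8 CPM in experiment 1, with an input difference of -0.15. Footprints of Eml4 were also lower later in experiment 1, at 31.6 CPM at 60 min, 37.2 at 90 min and 31.7 at 120 min, against 81.7 at 0 min. Cep290 was at 26.2 CPM at 0 min, 8.39 at 60 min, 12.9 at 90 min and 11.1 at 120 min of experiment 1, and Setdb2, a histone methyltransferase, at 17.9 CPM at 0 min and 4.29 at 120 min. The later libraries of experiment 1 thus reached the levels of experiment 2 in Cep290 and Setdb2.

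Rpl27 and Nme2, named by the same rule, are uncertain. Rpl27 encodes a protein of the large ribosomal subunit and had 4.27 and 4.48 CPM in experiment 2, against 14.9 and 14.4 CPM in experiment 1, while Rpl37a of the same subunit had 1565 and 1720 CPM in experiment 2, against 1212 and 1227 CPM in experiment 1. The annotation holds 3 pseudogene entries named after Rpl27, and Nme2 overlaps the readthrough gene Gm20390, so reads may be split between copies.

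Immediate-early regulators had the highest median of the lists with more than 10 tested members, and they are the transcription factors, phosphatases and RNA-binding proteins that cells switch on within minutes of a signal. Of 44 tested, 29 were higher in experiment 2 and 1 lower, beside 16.9% and 16.2% of all genes, with a median log2 fold change of 0.54. In 21 of the 44 all 3 libraries of experiment 2 lay above all 6 of experiment 1, and in 1 below them, beside 9.65% and 7.53% of all genes. The median difference was 0.37 at 20 min and 0.65 at 40 min. Gadd45b, a stress-signalling protein, had 9.12 and 9.87 CPM in experiment 2, against 2.94 and 1.87 CPM in experiment 1, a log2 fold change of 1.97 with a standard error of 0.18 (adjusted p = 4.30e-26, and 1.39e-03 without the time term). Ier5 had 16.2 and 25.6 CPM in experiment 2, against 9.11 and 9.93 CPM in experiment 1, and Ier3, an inhibitor of apoptosis, had 15.7 and 23.8 CPM in experiment 2, against 8.49 and 9.84 CPM in experiment 1. Both were highest at 40 min of experiment 2. Fosl1, a subunit of the transcription factor AP-1, differed by 1.00 on the log2 scale.

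Egr1, a zinc-finger factor that serum and growth factors induce, went the other way and was named after its value was seen. It had 0.130 and 0.203 CPM in experiment 2, against 1.69 and 1.91 CPM in experiment 1, and 0.247 CPM in the 30 min library of experiment 2, against 0.747 to 1.40 CPM at the other times of experiment 1. The log2 fold change was -3.47 with a standard error of 0.42 (adjusted p = 1.76e-14, and 1.28e-03 without the time term). The list's coding sequences have a median G+C content of 60.1%, and with a G+C offset per library the median was 0.37, with 21 of the 44 higher and 3 lower. The median was 0.64 or 0.55 without the 20 or the 40 min library of experiment 1, and 0.69 or 0.41 without that of experiment 2. The cause was not tested.

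Interferon-stimulated genes, which limit viral growth and present antigens, shared the direction. Of 37 tested, 21 were higher and 1, the immunoproteasome subunit Psmb8, was lower, beside 16.9% and 16.2% of all genes. The median was 0.48, and it was nearly the same at both times, 0.44 at 20 min and 0.49 at 40 min. In 19 of the 37 all 3 libraries of experiment 2 lay above all 6 of experiment 1, and in 2 below them. Over all genes these shares were 9.65% and 7.53%. Irf7, a transcription factor of the interferon loop, had 6.48 and 8.07 CPM in experiment 2, against 1.59 and 1.77 CPM in experiment 1, a log2 fold change of 2.10 with a standard error of 0.20. Oas3, a sensor of double-stranded RNA, had 45.2 and 52.3 CPM in experiment 2, against 24.2 and 22.9 CPM in experiment 1. Gbp7, a guanylate-binding protein, was low throughout at 2.91 and 3.26 CPM in experiment 2, against 0.675 and 0.466 CPM in experiment 1. Bst2, which tethers budding virus particles, had 106 and 84.7 CPM in experiment 2, against 63.7 and 54.2 CPM in experiment 1. The groups did not overlap in Irf7, Oas3, Gbp7 or Bst2. These genes had the list's smallest adjusted p in the same libraries, so the gap follows largely from the choice. With the G+C offset 23 of the 37 were higher and 2 lower. The median was 0.57 or 0.49 without the 20 or the 40 min library of experiment 1, and 0.51 or 0.47 without that of experiment 2.

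Promoters of this list are shown because 21 of its 37 members were higher and the control element known for such genes is short. The motif searched was the core of the interferon-stimulated response element, which is GAAA, any 2 bases and GAAA again, on both strands, from 250 bases before to 50 bases after the start site (RefSeq, GRCm38.p6). It was found in 14 of 31 tested list genes with a promoter, in 9 of the 16 that were higher and 5 of the 15 that were not, and in 290 of all 7836 genes tested with a promoter (3.70%). Those below are the 4 higher genes with the smallest adjusted p that hold it. The lines give each gene's own strand, with the motif in capitals, and Gbp7 holds it in the reverse direction.
Oas3 at chr5:120777715-120777744, minus strand: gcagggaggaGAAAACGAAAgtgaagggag
Gbp7 at chr3:142530273-142530302, plus strand: gtgtgtgcagTTTCAGTTTCagttctccat
Bst2 at chr8:71537583-71537612, minus strand: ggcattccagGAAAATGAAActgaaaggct
Oas1a at chr5:120907526-120907555, minus strand: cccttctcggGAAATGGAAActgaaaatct
Oas1a, which makes the second messenger that activates RNase L, had 32.9 and 33.3 CPM in experiment 2, against 20.98 and 19.6 CPM in experiment 1. The cyclic AMP response element TGACGTCA was in 4 of 34 immediate-early genes with a promoter and in 3.97% of all, and TGACNNNGC, the core of the antioxidant response element, was in 8 of 22 NRF2 targets and in 17.3% of all. A match is a description of the letters and not a binding site.

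Other lists of macrophage physiology were mixed. Among 34 inflammatory genes the median was 0.24, 15 were higher and 3 lower, and the lower ones were the NF-κB subunits Rel at -0.46 and Nfkb1 at -0.45 and the chemokine Cxcl16 at -0.30 on the log2 scale. Of 40 macrophage genes 20 were higher and 8 lower, against 16.9% and 16.2% of all genes. Their lower share of 20% was near that of all genes. Without the time term 17 were higher and 4 lower, beside 7.78% and 5.86% of all genes. Of 46 lysosomal genes 16 were higher and 10 lower, and of 17 genes of antigen presentation 6 were higher and 6 lower. In the fit without time 10 lysosomal genes were higher, and 3 genes of antigen presentation were higher and 3 lower. Cd14, the coreceptor for lipopolysaccharide, had 1238 and 1220 CPM in experiment 2, against 623 and 573 CPM in experiment 1, a log2 fold change of 1.03 with a standard error of 0.07 (adjusted p = 1.09e-44). Cd36, a scavenger receptor for fatty acids and oxidised lipoproteins, moved against it, with 133 and 107 CPM in experiment 2, against 236 and 218 CPM in experiment 1. The lipid genes Lpl and Abca1 also parted. Lpl, which encodes lipoprotein lipase, had 2635 and 2700 CPM in experiment 2, against 1399 and 1394 CPM in experiment 1, and Abca1, the cholesterol exporter, had 2.85 and 2.81 CPM in experiment 2, against 8.39 and 7.23 CPM in experiment 1.

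Of the metabolic and stress lists, those for glycolysis, NRF2, ATF4 and hypoxia had more higher than lower members. Glycolytic genes had a median of 0.29 in footprints and 0.07 in input. Of 23, 14 passed as higher and 2 as lower, beside 16.9% and 16.2% of all genes. In 5 of the 23 all 3 libraries of experiment 2 lay above all 6 of experiment 1, beside 9.65% of all genes. The list summed to 25416 to 31227 CPM in experiment 2, against 22862 to 30263 CPM over all times of experiment 1, so these ranges overlapped. Hk3, a hexokinase of myeloid cells, had 47.5 and 53.9 CPM in experiment 2, against 22.4 and 25.1 CPM in experiment 1. Slc2a1, the glucose transporter GLUT1, had 173 and 159 CPM in experiment 2, against 97.7 and 94.9 CPM in experiment 1. Pkm, the pyruvate kinase gene, differed by 0.47 in footprints and by -0.19 in input. Of 27 NRF2 targets 16 were higher and 1, Cd36, lower, of 32 ATF4 targets 14 were higher and 0 lower, and of 28 hypoxia genes 12 were higher and 2 lower. Without the time term the NRF2 and ATF4 counts were 8 and 9. All 3 libraries of experiment 2 lay above all 6 of experiment 1 in 7 NRF2, 8 ATF4 and 10 hypoxia genes. They lay below them in 1 gene of each list. The summed levels of each of these lists overlapped between the experiments over all times. Without the 20 or the 40 min library of experiment 1 the inflammatory median was 0.16 or 0.29 and the glycolytic 0.26 or 0.31. In that order it was 0.22 or 0.24 for macrophage and 0.25 or 0.31 for NRF2 genes. For ATF4 and hypoxia genes it was 0.18 or 0.21 and 0.12 or 0.28. With all 4 libraries the medians were 0.21 for macrophage, 0.28 for NRF2, 0.19 for ATF4 and 0.20 for hypoxia genes. Hmox1, heme oxygenase, had 99.1 and 122 CPM in experiment 2, against 69.8 and 71.6 CPM in experiment 1. Heat-shock genes had a median of -0.02, with 7 of 24 higher and 2 lower, and of 13 metal-response genes 2 were higher and 3 lower. In the fit without time 3 heat-shock genes were higher and no metal-response gene was lower. Atf3, a stress-induced factor, had 11.5 and 13.6 CPM in experiment 2, against 6.46 and 5.60 CPM in experiment 1. Cdkn1a, the cell-cycle inhibitor p21, had 61.1 and 75.5 CPM in experiment 2, against 26.3 and 26.7 CPM in experiment 1, a log2 fold change of 1.35 with a standard error of 0.10.

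Surface and matrix genes followed. Of 19 matrix and adhesion genes 10 were higher and 2 lower, and of 19 galectin, S100 and annexin genes 10 were higher and 1 lower, beside 16.9% and 16.2% of all genes. Without the 20 or the 40 min library of experiment 1 their medians were 0.27 or 0.43 and 0.30 or 0.38. With all 4 libraries the medians were 0.33 and 0.34. Anxa3, a calcium-dependent phospholipid-binding annexin, had 70.8 and 78.5 CPM in experiment 2, against 33.5 and 35.1 CPM in experiment 1. Its relative Anxa5 had 1439 and 1662 CPM in experiment 2, against 818 and 911 CPM in experiment 1. The exception S100a11, a calcium-binding protein, had 350 and 342 CPM in experiment 2, against 531 and 571 CPM in experiment 1. Spp1, which encodes the secreted matrix protein osteopontin, had 3387 and 3644 CPM in experiment 2, against 2198 and 2312 CPM in experiment 1.

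Replication-dependent histones were mostly lower. Of 55 tested, 43 were lower in experiment 2 and 0 higher, beside 16.2% and 16.9% of all genes, with a median of -0.53. The list summed to 12815 and 12299 CPM in experiment 2, against 19546 and 15421 CPM in experiment 1. The 30 min library of experiment 2 was at 10852 CPM and the other times of experiment 1 at 15897 to 18161 CPM, so all 3 libraries of experiment 2 were below all 6 of experiment 1. That held gene by gene for 38 of the 55, beside 7.53% of all genes. Input went the same way and further, with a median of -0.87 and 50 lower and 1 higher of 55.

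Hist1h3d (ENSMUSG00000099583), a gene for histone H3, had the smallest adjusted p of the list. It had 129 and 112 CPM in experiment 2, against 428 and 365 CPM in experiment 1, a log2 fold change of -1.72 with a standard error of 0.08 (adjusted p = 3.93e-96, and 8.68e-05 without the time term). The H3 gene Hist1h3b had 104 and 110 CPM in experiment 2, against 337 and 287 CPM in experiment 1. Hist1h3f, also for H3, had 237 and 335 CPM in experiment 2, against 811 and 688 CPM in experiment 1, and Hist1h4n, for H4, had 38.2 and 43.2 CPM in experiment 2, against 140 and 108 CPM in experiment 1. The coding sequences of histone genes are near-identical, so how reads were shared among single members is uncertain, and the summed level is the firmer value. The list's median was -0.35 without the 20 min library of experiment 1 and -0.69 without its 40 min library.

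The stem-loop that ends these mRNAs is what they share beyond their coding sequence, and it is printed for the 4 genes just described. The lines give the sense strand after the stop codon (GENCODE M21 transcripts), with the stem-loop in capitals.
Hist1h3d, gene at chr13:23575763-23577011: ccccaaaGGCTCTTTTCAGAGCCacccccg
Hist1h3b, gene at chr13:23752267-23752886: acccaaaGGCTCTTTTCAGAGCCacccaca
Hist1h3f, gene at chr13:23544052-23545312: ccaaaacGGCTCTTTTAAGAGCCacctcca
Hist1h4n, gene at chr13:21831767-21832196: aactaaaGGCCCTTTTCAGGGCCatccaat
The motif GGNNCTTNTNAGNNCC occurred on the sense strand within 100 bases of the stop codon in 37 of 42 tested list genes with such a sequence, and in 2 of the other 9488 genes (0.0211%). Its first base lay 22 to 55 bases after the stop codon. Histone variants, which are made outside S phase with a poly(A) tail, split: of 10 tested, 2 were higher and 5 lower, and without the time term 2 were lower. H3f3a, for the variant H3.3, had 466 and 527 CPM in experiment 2, against 675 and 732 CPM in experiment 1, whereas H3f3b, for the same protein, had 585 and 775 CPM in experiment 2, against 455 and 472 CPM in experiment 1.

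The 13 mRNAs encoded by mitochondrial DNA, which are translated by mitochondrial ribosomes, were all called lower with the time term, with a median of -0.68. They took 0.317% and 0.750% of reads in experiment 2, against 0.537% and 1.09% in experiment 1. The share was larger at 40 than at 20 min in both experiments, so the groups overlapped. Without the time term edgeR called none of the 13, with adjusted p = 3.82e-01 for mt-Co1 and 1.85e-01 for mt-Atp6. mt-Co1, a subunit of cytochrome c oxidase, had 865 and 2441 CPM in experiment 2, against 1631 and 3321 CPM in experiment 1, and without the 40 min library of experiment 1 its difference was 0.01. mt-Atp6, a subunit of ATP synthase that overlaps mt-Atp8 and mt-Co3, had 215 and 493 CPM in experiment 2, against 390 and 888 CPM in experiment 1. The list's median was -0.04 without the 40 min library of experiment 1 and -0.15 without the 20 min library of experiment 2, so the shift in these 4 libraries rests on matching by time. The 30 min library of experiment 2, which did not enter the fit behind these calls, summed to 2020 CPM over the list. It lay below the 0, 60, 90 and 120 min libraries of experiment 1 in 13 of 13 genes, beside 23.3% of all genes. In 0 of 13 were all 3 libraries of experiment 2 below all 6 of experiment 1. Nuclear-encoded respiratory genes shifted less: of 37 complex I genes 4 were higher and 10 lower, and of 53 genes of complexes II to V 6 were higher and 16 lower. Of all genes 16.9% were higher and 16.2% lower. In the fit without time 4 complex I genes and 9 of complexes II to V were lower. The medians of the 2 lists were -0.09 and -0.06 with all 4 libraries. Without the 20 or the 40 min library of experiment 1 they were -0.09 or -0.06 and -0.11 or -0.02. Cox7c, a small subunit of cytochrome c oxidase, had 258 and 288 CPM in experiment 2, against 418 and 424 CPM in experiment 1.

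Cell-division, RNA-binding and zinc-finger genes had more lower than higher members. Of 36 mitotic genes 16 were lower and 3 higher, beside 16.2% and 16.9% of all genes, with a median of -0.11. Without the time term 10 were lower and 1 higher, beside 5.86% and 7.78% of all genes. Prc1, which bundles microtubules of the spindle midzone, had 118 and 108 CPM in experiment 2, against 223 and 179 CPM in experiment 1. Across experiment 1 it was at 260 CPM at 0 min, 125 at 60 min, 123 at 90 min and 84.0 at 120 min, so the levels of experiment 2 were within the range of experiment 1. In only 1 of the 36 were all 3 libraries of experiment 2 below all 6 of experiment 1, beside 7.53% of all genes. Cenpf and Cenpe, kinetochore proteins, differed by -0.75 and -0.73 in footprints and by 0.66 and 0.57 in input.

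Of 25 hnRNP genes, whose proteins bind nascent transcripts in the nucleus, 12 were lower and 0 higher, beside 16.2% and 16.9% of all genes. Their median was -0.19 in footprints and 0.29 in input. Hnrnpd had 557 and 548 CPM in experiment 2, against 693 and 709 CPM in experiment 1, and its input had 116 and 84.2 CPM in experiment 2, against 48.3 and 27.7 CPM in experiment 1. In 12 of 25 the footprint difference fell short of the input difference, beside 14.2% of all genes. Without the time term 5 hnRNP genes were lower, beside 5.86% of all genes. In 2 of the 25 all 3 libraries of experiment 2 lay below all 6 of experiment 1, beside 7.53% of all genes. The list summed to 18114 to 19317 CPM in experiment 2, against 18119 to 25577 CPM over all times of experiment 1. The list's median was -0.23 or -0.15 without the 20 or the 40 min library of experiment 1. Of 252 zinc-finger genes 52 were lower and 5 higher, with a median of -0.15, a share of 20.6% lower beside 16.2% of all genes. Without the time term 15 of 252 were lower, beside 5.86% of all genes, and with the G+C offset 25 of 251, beside 13.2%, so its share was near or below that of all genes in those fits. Zfp871 had 22.6 and 18.1 CPM in experiment 2, against 37.6 and 34.5 CPM in experiment 1, while Zfp36, which destabilises cytokine mRNAs, had 39.7 and 46.2 CPM in experiment 2, against 24.7 and 24.9 CPM in experiment 1. Of 47 Rab genes, small GTPases of membrane traffic, 17 were lower and 4 higher, and without the time term 6 were lower. Without the 20 or the 40 min library of experiment 1 the zinc-finger median was -0.02 or -0.23 and the mitotic -0.14 or -0.08. The Rab median was -0.06 or -0.07, and -0.07 with all 4 libraries.

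Ribosomal protein genes, the most abundant footprint group, stayed close to the middle. Of 48 large-subunit genes the median was -0.03, with 10 higher and 11 lower, and of 30 small-subunit genes it was -0.02, with 3 higher and 5 lower. Of all genes 16.9% were higher and 16.2% lower. In the fit without time 5 large-subunit genes were higher and 6 lower, and 1 small-subunit gene was higher and 3 lower. They took 9.12% and 8.91% of footprint reads in experiment 2, against 9.42% and 9.11% in experiment 1.

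**Figure D3:**
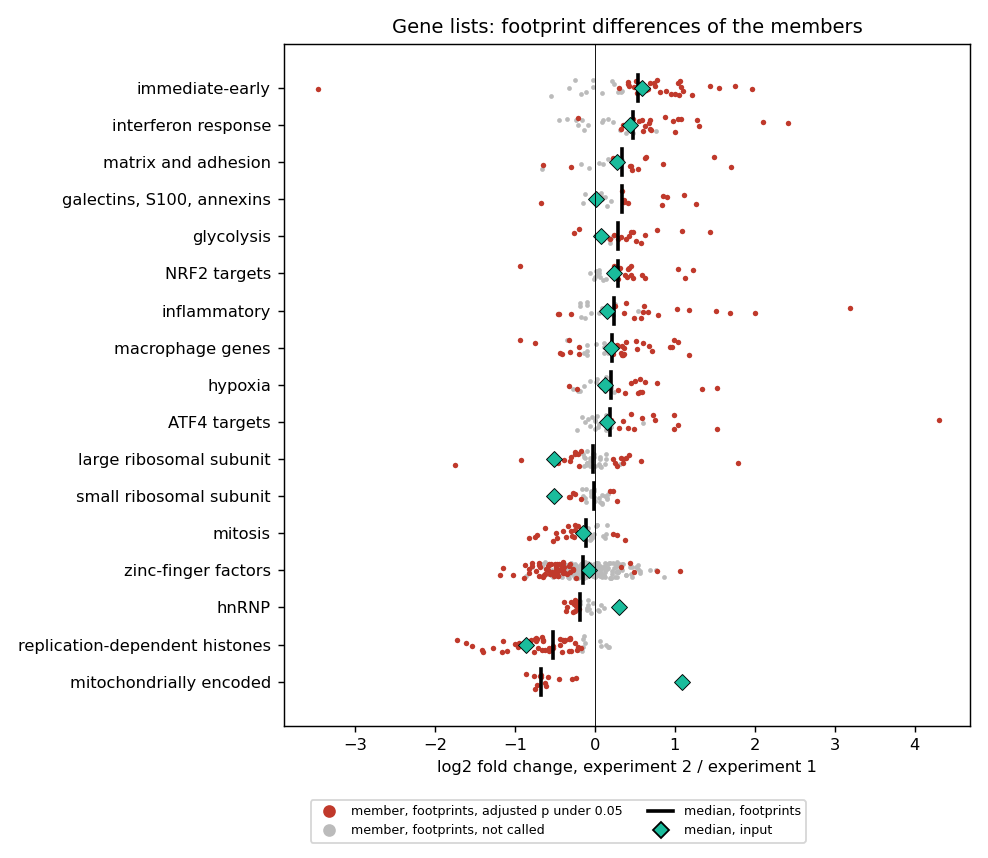
Log2 fold change (experiment 2 over experiment 1) in footprints of each member of 17 gene lists, red where adjusted p was under 0.05, with the median of the list as a bar and the median of its input differences as a diamond. Immediate-early and interferon lists sit highest with medians of 0.54 and 0.48, histones and mitochondrially encoded mRNAs lowest with -0.53 and -0.68, and for the mitochondrially encoded list the input median of 1.09 lies on the other side of 0.

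The difference between the experiments followed the base composition of coding sequences. In the 20% of genes with the lowest G+C content (up to 46.7%) the median was -0.18, and of 1948 genes 75 were higher and 725 lower. In the 20% with the highest (57.8% and above) the median was 0.17, and of 1947 genes 593 were higher and 112 lower. Spearman's rho across 9736 genes between G+C content and the difference was 0.44 in footprints, 0.31 at 20 min and 0.50 at 40 min, and 0.05 in input. It was -0.37 for the share of the codon AAA and 0.36 for CTG. These are descriptions across genes that share libraries and base composition.

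The pattern was not shared by all libraries of an experiment. Relative to the mean of the 6 libraries of experiment 1, the median of the 20% highest in G+C minus that of the 20% lowest was 0.10 at 20 min, -0.25 at 30 min and 0.34 at 40 min in experiment 2. In experiment 1 it was -0.11 at 0 and at 20 min, -0.14 at 40 min, 0.46 at 60 min, -0.07 at 90 min and -0.00 at 120 min. The 30 min library thus ran against its 2 companions, and the 60 min library had the steepest positive value of the 9. With the G+C content as an offset per library, a setting chosen after seeing the data, 1407 of 9736 coding genes were higher (14.5%) and 1288 lower (13.2%). Histones then had 50 of 55 lower and a median of -0.77, zinc-finger genes 25 of 251 lower and the mitochondrially encoded mRNAs 6 of 10 lower, 1 higher and a median of -0.30. Whether composition accounts for other differences was not tested.

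The middle 20 codons are printed for 4 named genes, the 2 of highest G+C content among the 12 highest genes and the 2 of lowest among the 12 lowest. They were chosen by composition, so their contrast follows from the choice. Car2, the highest gene, has 50.4% G+C. G or C at the third codon position is in capitals (GENCODE M21, sense strand).
Id1: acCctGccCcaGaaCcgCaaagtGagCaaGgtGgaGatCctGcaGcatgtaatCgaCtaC
Pim1: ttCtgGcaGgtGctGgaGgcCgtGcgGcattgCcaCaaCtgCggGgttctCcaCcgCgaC
Cysltr1: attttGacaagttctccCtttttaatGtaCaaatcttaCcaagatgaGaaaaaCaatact
Cep290: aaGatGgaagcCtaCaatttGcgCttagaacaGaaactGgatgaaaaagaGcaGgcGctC
The third positions held G or C in 17 of 20 codons for Id1, 18 for Pim1, 7 for Cysltr1 and 12 for Cep290. The whole coding sequences have 62.7%, 58.7%, 38.2% and 38.8% G+C in that order. With the G+C offset the log2 fold changes were 2.18 for Id1, 1.69 for Pim1, -0.74 for Cysltr1 and -0.74 for Cep290, and all 4 were still called.

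**Figure D4:**
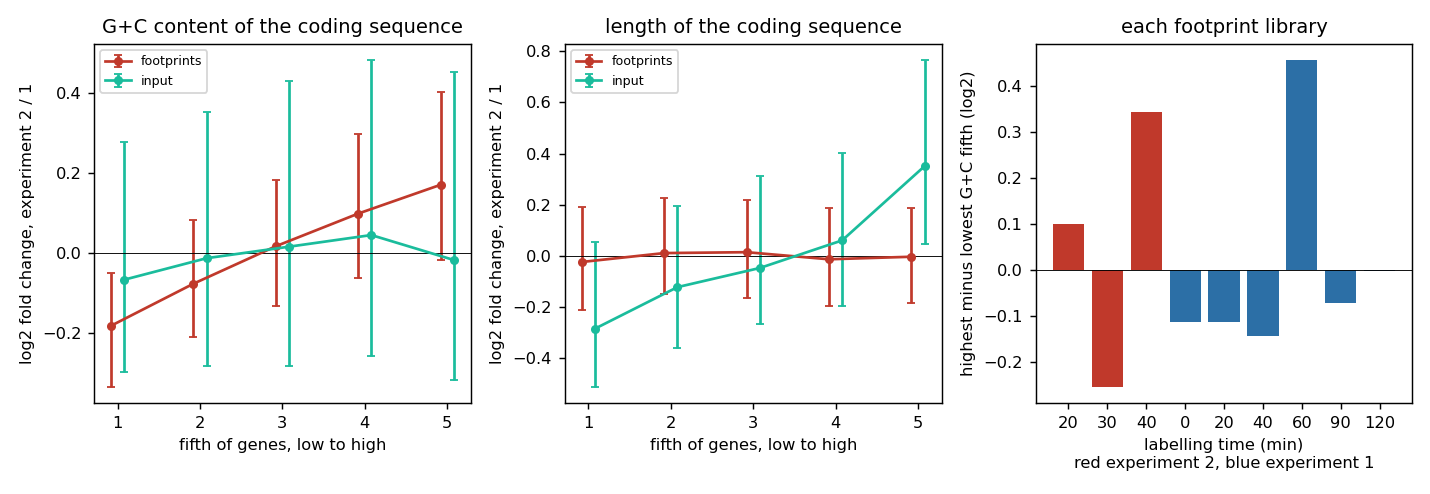
Left and middle, median log2 fold change with quartiles (experiment 2 over experiment 1) in footprints and input in 5 equal bins of genes, ordered by G+C content and by length of the coding sequence. Right, the G+C difference of each footprint library in log2 (highest minus lowest bin) against the mean of the 6 libraries of experiment 1, with red bars for experiment 2 and blue for experiment 1. Footprints change from -0.18 to 0.17 with G+C, input from -0.28 to 0.35 with length, and the 30 min library of experiment 2 at -0.25 is opposite to its companions.

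Input of the same lysates differed more between the experiments than footprints did, and along another property. Of 10278 genes tested in input 2635 were higher in experiment 2 (25.6%) and 2325 lower (22.6%), and 843 of the higher and 77 of the lower reached 2-fold. Depth differed too, with 48139330 and 26359243 input reads at 20 and 40 min in experiment 2, against 6840807 and 6822082 in experiment 1. Spearman's rho with coding length was 0.41 in input and -0.00 in footprints. In the 20% of genes with the shortest coding sequences the median input difference was -0.28 and in the 20% with the longest 0.35, while their footprint medians were -0.02 and -0.00. Ribosomal protein genes had an input median of -0.51 in both subunits, with 44 of 48 large-subunit genes lower in input, and their footprint medians stayed at -0.03 and -0.02.

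The difference of the differences was tested directly over the 8 footprint and input libraries. In 853 of 10589 genes the footprint difference exceeded the input difference (8.06%), and in 1500 it fell short of it (14.2%). With the G+C content and length of the coding sequence as offsets per library, chosen after seeing the data, 1059 of 10068 genes exceeded it and 1142 fell short, and the share of called genes that exceeded it was 48.1%, against 36.3% without the offsets. The 6 genes that exceeded it most included small subunits of respiratory complex I. Of these, Ndufa2 and Ndufb2 had values of 1.34 and 1.23 on the log2 scale, and Mzt1, a part of the γ-tubulin complex, 1.36. Ndufa2 had 149 and 172 CPM in footprints of experiment 2, against 92.8 and 102 CPM in experiment 1, while its input was lower by -0.64. Mrfap1 at 1.26, Scand1 at 1.26 and RP23-79J21.3 at 1.37 complete the highest 6.

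The genes that fell short of it most had far higher input in experiment 2. Rps16 (ENSMUSG00000037563), a small-subunit ribosomal protein, had 1120 and 1196 CPM in footprints of experiment 2, against 1056 and 1012 CPM in experiment 1, a log2 fold change of 0.16 that did not pass the test (adjusted p = 6.57e-02 in edgeR). Its input had 747 and 851 CPM in experiment 2, against 118 and 62.9 CPM in experiment 1. That ran against the small-subunit list, where 25 of 30 genes were lower in input and 1 higher, with a median of -0.51. The difference of the differences was -3.03 with a standard error of 0.29 (adjusted p = 9.51e-04 in edgeR). Irf2 at -3.13 and Zfp609 at -2.997, regulators of transcription, and Furin at -3.03, a proprotein convertase, had higher input too, with footprint differences of -0.23, -0.32 and 0.57 in that order. For mt-Nd5, a subunit of complex I, the value was -2.64, and 5 of the 13 mitochondrially encoded mRNAs fell short with none exceeding. The 2 input libraries of experiment 2 were themselves apart for mt-Nd5, at 1904 CPM at 20 min and 773 CPM at 40 min, against 352 and 340 CPM in experiment 1.

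**Figure D5:**
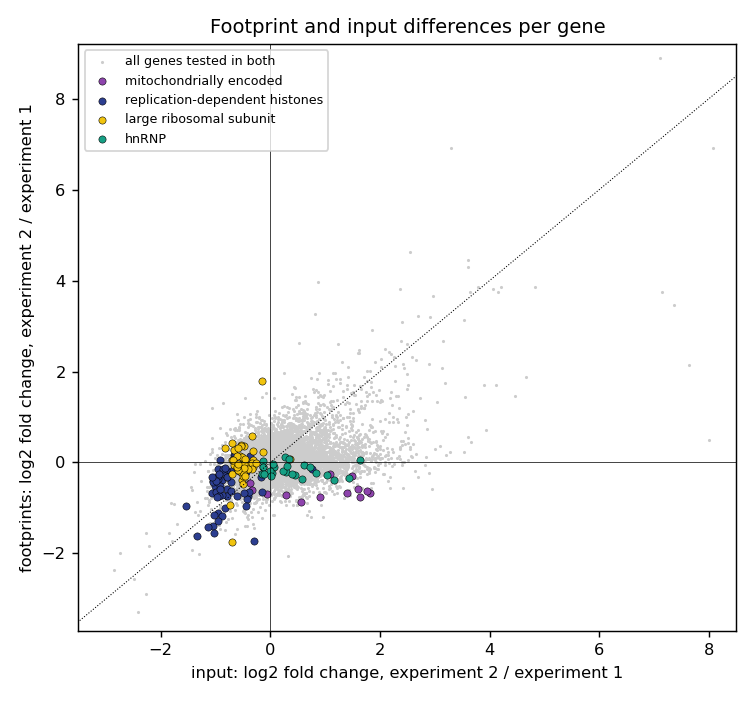
Log2 fold change (experiment 2 over experiment 1) in input on the x axis and in footprints on the y axis for each gene tested in both, with 4 lists in colour and the line of equal differences dotted. Histones lie mostly lower left, and most large-subunit ribosomal genes lie left near a footprint difference of 0. Mitochondrially encoded mRNAs lie below 0 in footprints and mostly right. In input 9 of these 13 mRNAs were higher and 2 lower.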

How the data were processed

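The 18 libraries are ribosome footprints and input of RAW264.7 lysates. The authors aligned reads with Bowtie 0.12.8 to mm10, per the submitters' processing notes. The deposited values are whole-number counts of reads per gene, split by the number of T positions and of T-to-C conversions in the read. That reading of the columns was inferred from the file headers, while the annotation behind the counts was not given in the sources used here. All columns of a gene were summed.

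Counts were tested with edgeR 4.0.16 in R 4.3.3 (TMM scaling, low-count filter, quasi-likelihood fit with labelling time and experiment as terms, Benjamini-Hochberg adjustment over all genes tested, threshold 0.05). In footprints this fit has 1 residual degree of freedom, and edgeR took each gene's spread from a trend with read level shared by all genes. The common biological coefficient of variation, a summary over all genes, was 0.0612. The fit without time has 2 residual degrees of freedom. Footprint and input differences were compared by an interaction over 8 libraries. The time term takes libraries of one labelling time as a pair. Their deviations from the experiment means correlated at 0.260 across genes, with 2 pairs only. DESeq2 1.42.0 was an alternative. The fits were tested on simulated data.

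Named genes were the 12 highest and 12 lowest fold changes among genes called, not overlapping and at 10 CPM or more, up to 4 members of each list by adjusted p, and 6 per direction in the interaction. Of these, 2 genes are not reported here. Lower members of mostly higher lists (Egr1, Psmb8, Rel, Nfkb1, Cxcl16) were chosen after their values were seen. The members and lists were chosen with earlier results of these data known. The base-composition offsets were chosen after seeing the data. Coding sequences came from GENCODE M21 and promoters from RefSeq (GRCm38.p6). Read totals ranged from 6230562 in input to 87536081 in footprints, and reads without molecular identifiers are not independent molecules.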

Additional observations from a re-analysis of the deposited data

Results flagged for a closer look

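The difference between the experiments was not the same in footprints and in input, by the interaction term in edgeR. It was larger in footprints for 853 genes and smaller for 1500. The highest footprint-minus-input values named were 1.374 for RP23-79J21.3, 1.362 for Mzt1, 1.338 for Ndufa2, 1.265 for Scand1, 1.265 for Mrfap1 and 1.23 for Ndufb2 on the log2 scale. Low values were -3.134 for Irf2, -3.032 for Rps16, -3.028 for Furin, -2.997 for Zfp609 and -2.638 for mt-Nd5.

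Reads with a T-to-C conversion, which the comparisons summed with all others, were above the unlabelled footprint library of experiment 1 at 0.298%. They made up 0.3131% and 0.8721% of footprint reads at 20 and 40 min in experiment 2, against 0.4575% and 1.286% in experiment 1. No cause was tested for these values.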

How the results depend on the processing

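Against 1730 higher and 1659 lower footprint genes, the DESeq2 Wald test called 627 and 602, the fit with no replicate block, which leaves out the time pairing, 794 and 598, the fit of all 9 footprint libraries 859 and 628, and a 2-fold requirement left 254 and 74. Leaving out 1 library, also without the time term, gave 347 to 1940 higher and 211 to 1993 lower genes, the lowest without the 20 min library of experiment 1. Without its 40 min library 372 were higher and 300 lower. In input DESeq2 called 1738 and 1261, against 2635 and 2325. mt-Co1 was at 0.0131 without the 40 min library of experiment 1 and -1.53 without that of experiment 2. Upper-quartile scaling moved the median of all genes to 0.03 and called 2029 higher and 1369 lower. With the lysate as a replicate block the interaction called 659 and 1258 genes. Of 207 named genes 169 were still called without the time term and 121 without the 40 min library of experiment 1. The cause was not tested. Genes of few reads limit what could be detected, and both experiments have 2 footprint libraries at matched times.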

Other observations

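One gene was read in experiment 2 only, and it was singled out after its values were seen. Cish, a cytokine-induced inhibitor of JAK-STAT signalling, had 125, 134 and 46 footprint reads at 20, 30 and 40 min in experiment 2, and no read in any of the 6 footprint libraries of experiment 1. It was the only gene with at least 10 reads in each library of experiment 2 and no read in experiment 1, and no gene showed the reverse. Its level of 1.53 to 2.09 CPM, unscaled, was at least 6.01-fold higher than the floor of 3 counts per library, which came to at most 0.255 CPM. Input held 96 reads in experiment 2 and 0 in experiment 1.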
